A study of Saccharomyces cerevisiae with 16 samples.

Results

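The genes described here build peroxisomes and oxidise fatty acids inside them. They were chosen by annotated symbol, with no value used in the rule, although earlier results of these data were known. The symbols were *PEX* followed by a number, which marks the peroxins, 12 enzymes and transporters of fatty acid oxidation, and *PIP2* and *OAF1*, which encode 2 transcription factors. This gave 39 of the 5449 genes on the arrays, namely 25 peroxins, the 12 enzymes and transporters, and the 2 factors. RefSeq lists 29 genes with a *PEX* symbol, of which 4 had no probe set of that symbol and are not covered. Each member had 1 probe set, none of a type shared with related sequences, and all 39 passed the filter, a value of 4 log2 units or more on 3 or more arrays. Of these, *PEX18* lay under 4 on 9 arrays, *CTA1* on 6 and *POT1* on 2, so these passed through the arrays on which they were high.

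In yeast, unlike in mammals, fatty acids are oxidised in peroxisomes alone. Fatty acids reach the organelle as acyl-CoA through the ABC transporter Pxa1-Pxa2, or as free acids that Faa2 activates inside. Pox1 then makes the first double bond and releases hydrogen peroxide, which the catalase Cta1 destroys, Fox2 adds water and oxidises the product, and the thiolase Pot1 cleaves off acetyl-CoA. Glucose is known to repress these genes, and oleate induces them through a heterodimer of Oaf1 and Pip2, with Adr1 as a further activator. Peroxins form the organelle, insert its membrane proteins and import its enzymes from the cytosol.

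All samples were of the haploid laboratory strain CEN.PK113-7D in mineral salts medium, in which glucose limited growth at first. The glucose supply was then raised linearly until ammonia was limiting, once with oxygen and once without. Each of the 2 series gave 8 serial samples, each measured on 1 array as log2 intensities. The glucose concentrations in the labels, taken as those of the feed, were 1, 5.51, 8.5, 11.56, 16.96, 30.97, 47.91 and 60.34 g/L in the aerobic series, at 0, 4.1, 6.85, 9.6, 14.5, 27.25, 42.65 and 53.95 h. In the anaerobic series they were 1, 4.87, 10.31, 16.19, 24.86, 33.1, 39.56 and 46.75 g/L, at 0, 4.35, 10.38, 16.88, 26.52, 35.67, 42.85 and 50.85 h. In each series the first 3 samples are called early, the next 2 mid and the last 3 late. The labels name no separate cultures, so the tests gauge differences only by the scatter among serial samples of what may be 1 culture, and oxygen cannot be told apart from culture.

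A pair of arrays stood apart before any member was considered. The aerobic 9.6 h array correlated with the rest of its series at a median of 0.776 across genes, while the 7 others had 0.86 to 0.927. The anaerobic 0 h array had 0.9 with its own series, where the 7 others had 0.934 to 0.971, and carried marks of oxygen. Its mean over 3 genes used with oxygen (*CYC1*, *COX5A* and *ROX1*) was 14.08 log2 units, against 13.55 to 13.94 on the aerobic arrays and 9.93 to 13.25 later in its own series. Its mean over 7 genes used without oxygen, such as *ANB1* and *DAN1*, was 9.61, against 5.00 to 5.53 on the aerobic arrays and 13.07 to 14.56 on the anaerobic arrays from 10.38 h on. The 4.35 h array held 9.77 for the same list. Array medians were 11.33 to 11.51 in the aerobic and 10.78 to 10.97 in the anaerobic series. The mean over 5 genes of mating type **a**, the mating type of this strain, was at least 12.26 on every array, and that over 4 genes of the other type was 5.66 to 8.76, of which 1, *MF(ALPHA)2*, lay under 4 throughout. Results are given with all arrays and, where they differ, without the aerobic 0 h, aerobic 9.6 h and anaerobic 0 h arrays, written "without the 3 arrays". The aerobic 0 h array did not stand apart in its correlation, which was 0.86, and was left out with earlier results known.

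Transcripts of fatty acid oxidation followed a shared course in the aerobic series. They were high at 0 h, lower at 4.1 and 6.85 h, high a second time at 9.6 h and lower again from 14.5 h on, with no test made of single arrays. For all 12 enzymes and transporters, 0 h and 9.6 h were the highest pair of the 8 aerobic arrays, a pattern found in 10.5% of all 5213 genes tested. It held for 9 of 25 peroxins and for neither *OAF1* nor *PIP2*. The lowest pair was 4.1 and 6.85 h for 7 of 12 enzymes, 15 of 25 peroxins and both factors, beside 32.2% of all genes. For the 5 other enzymes, *CTA1*, *FAA2*, *FOX2*, *POX1* and *PXA1*, at least 1 later array was lower than the 6.85 h array. In the anaerobic series all 12 enzymes were highest at 0 h, as were 14 of 25 peroxins and 24.2% of all genes.

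**Figure D1:**
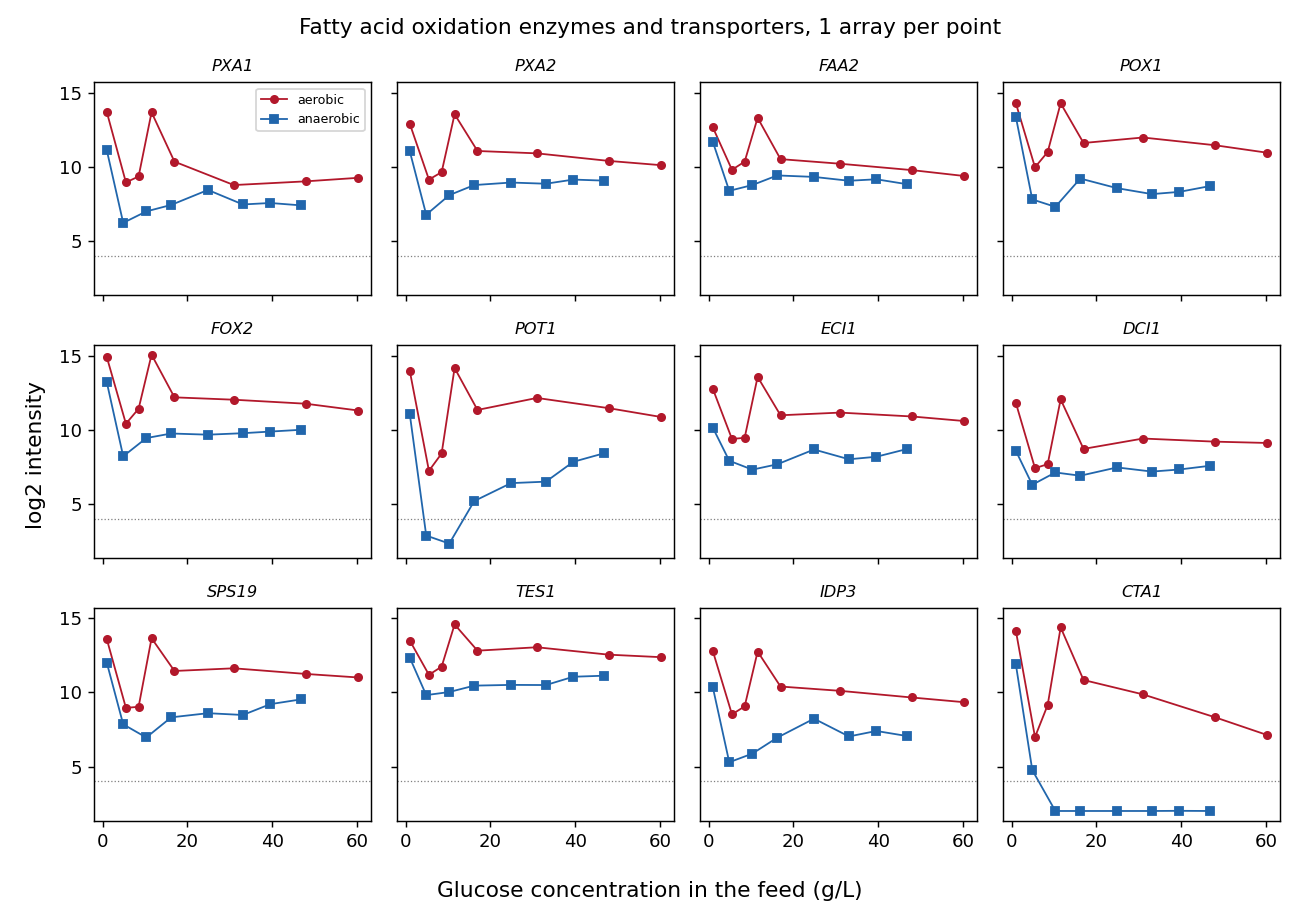
log2 intensity of the 12 enzymes and transporters (vertical axis) against glucose in the feed in g/L (horizontal axis), with 1 point per array, circles for the aerobic and squares for the anaerobic series, and a dotted line at 4 log2 units. All 12 aerobic curves have maxima at 1 and 11.56 g/L, and all 12 anaerobic curves are highest at 1 g/L.

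The transporter subunits and the peroxisomal activating enzyme come first in the pathway. *PXA1* read 13.72, 8.97, 9.37, 13.70, 10.37, 8.79, 9.04 and 9.28 log2 units along the aerobic series, and 11.14, 6.24, 7.01, 7.45, 8.46, 7.48, 7.58 and 7.42 along the anaerobic one. It was thus high on 2 aerobic arrays and 1 anaerobic array, and from 27.25 h on it lay close to its level at 4.1 h. Its partner *PXA2* had 12.92 and 13.57 at aerobic 0 and 9.6 h against 9.16 to 11.09 on the other aerobic arrays. *FAA2*, the medium-chain acyl-CoA synthetase, had 12.68 and 13.33 on the same pair against 9.40 to 10.54 elsewhere in the series. It was the 1 enzyme of the 12 whose late aerobic level, 9.40 at 53.95 h, ended below its level of 9.82 at 4.1 h.

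Of the core enzymes, *POT1* spanned at least 10.17 log2 units, since 2 of its values lay below 4. Its thiolase is the last step of the cycle, and its log2 values were 13.96, 7.23, 8.40, 14.17, 11.34, 12.15, 11.46 and 10.86 in the aerobic series. In the anaerobic series they were 11.04, 2.86, 2.32, 5.19, 6.40, 6.50, 7.84 and 8.41. The anaerobic transcript lay below 4 at 4.35 and 10.38 h and was then higher at every sample than at the one before, from 10.38 h to the end, the one member of the 39 with that course, which 4.6% of all genes had. *POX1*, the acyl-CoA oxidase, read 14.31, 9.99, 11.02, 14.31, 11.63, 12.00, 11.48 and 10.97 aerobically, and 13.38, 7.82, 7.32, 9.23, 8.58, 8.18, 8.33 and 8.72 in the anaerobic series. Its 0 h and 9.6 h aerobic values were thus equal to 2 decimals. *FOX2*, the multifunctional hydratase and dehydrogenase, had 14.91 and 15.07 on that pair of aerobic arrays and 10.41 to 12.19 on the other 6.

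The auxiliary enzymes handle unsaturated chains and side products. *SPS19*, the dienoyl-CoA reductase, read 13.60, 8.96, 9.03, 13.66, 11.45, 11.63, 11.25 and 11.01 log2 units in the aerobic series and 12.01, 7.85, 6.96, 8.32, 8.60, 8.48, 9.21 and 9.53 in the anaerobic one. It remained more than 1 log2 unit above its 4.1 and 6.85 h values on every later aerobic array. The enoyl-CoA isomerase gene *ECI1* and its relative *DCI1* had aerobic maxima of 13.57 and 12.05 at 9.6 h and minima of 9.38 and 7.41 at 4.1 h. *TES1*, an acyl-CoA thioesterase, spanned 4.77 log2 units over the 16 arrays, the narrowest range of the 12. *IDP3*, the isocitrate dehydrogenase that supplies peroxisomal NADPH for the reductase, had 12.79 and 12.76 at aerobic 0 and 9.6 h and 5.29 to 8.23 on the anaerobic arrays after 0 h.

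Catalase spanned at least 10.39 log2 units over the 16 arrays, a bound with values below 4 set to 4. *CTA1* read 14.16, 6.99, 9.15, 14.39, 10.84, 9.87, 8.33 and 7.12 along the aerobic series, so it ended near its 4.1 h value. In the anaerobic series it read 11.89 at 0 h and 4.76 at 4.35 h, and on the other 6 arrays it lay at 2.00 or 2.01, the floor of these values. Below 4 log2 units its level could not be ordered.

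The height of the 0 h and 9.6 h arrays rests on single arrays, so no test was made. At aerobic 0 h all 12 enzymes lay at least 1 log2 unit above the mean of 4.1 and 6.85 h, as did 4 of 25 peroxins and 12.4% of all genes. The median difference was 4.00 log2 units for the enzymes (2.03 for *TES1* to 6.15 for *POT1*), 0.62 for the peroxins and 0.00 for all genes. At anaerobic 0 h, set against the mean of 4.35 and 10.38 h, the same counts were again 12 of 12 and 4 of 25, beside 12.4% of all genes. Medians there were 4.45 for the enzymes, 0.66 for the peroxins and 0.11 for all genes. At aerobic 9.6 h, against the mean of 6.85 and 14.5 h, all 12 enzymes and 4 of 25 peroxins were again higher by that margin, beside 15.3% of all genes, with medians of 3.31, 0.62 and 0.23. The 0 h and 9.6 h arrays of the aerobic series differed little from each other for the enzymes, with a median difference of 0.22 and a range from -0.03 for *IDP3* to 1.10 for *TES1*.

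From 27.25 to 42.65 to 53.95 h the level was lower at each step for 11 of 12 enzymes, *PXA1* being the exception, for 13 of 25 peroxins and for both *OAF1* and *PIP2*, against 18.2% of all genes. Between 27.25 and 53.95 h the difference was at least 1 log2 unit downward for 3 enzymes and 1 peroxin, namely *CTA1* (-2.76), *POT1* (-1.29), *POX1* (-1.03) and *PEX18* (-2.81), beside 1.17% of all genes. These are differences of single arrays with no test.

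Late minus early was the first comparison tested, and it asked how the 3 arrays of highest glucose differed from the 3 of lowest. Glucose, time and the limiting nutrient changed together along each series, so this comparison cannot tell them apart. With all arrays in the limma fit, 1 of 39 members was called in the aerobic series at a Benjamini-Hochberg adjusted p under 0.05, beside 15.5% of all genes. This was *OAF1*, which rose by 0.79 ± 0.20 log2 units (standard error of the fit, 3 arrays a side, adjusted p = 0.0221). Its early values were 11.07, 10.59 and 10.41 and its late values 11.61, 11.43 and 11.40, with no overlap. *PIP2* had 11.43, 10.10 and 10.38 early and 12.03, 11.77 and 11.67 late, also without overlap, and its value of 1.19 ± 0.41 was not called (adjusted p = 0.0682). None of the 12 enzymes was called, and 0 of them had an unadjusted p under 0.05. Their standard errors were 0.70 to 2.22 log2 units, and in each of them the 0 h array lay above every late array. The median change was -0.19 for the enzymes, 0.22 for the peroxins and 0.10 for all genes.

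Without the 3 arrays the late samples were set against 4.1 and 6.85 h alone. Since all 12 enzymes were higher at 0 h than on any late array, leaving that array out removes the early sample that opposes a rise. In that fit 24 members rose and 1 fell, beside 33.1% and 21.4% of all genes. The 24 were 7 of 12 enzymes, 15 of 25 peroxins and both factors. *POT1* rose by 3.68 ± 0.61 log2 units (limma adjusted p = 0.00087), *SPS19* by 2.30 ± 0.33 (adjusted p = 0.000453), *DCI1* by 1.70 ± 0.27 and *ECI1* by 1.46 ± 0.32. *TES1*, *PXA2* and *POX1* rose by 1.19 ± 0.24, 1.08 ± 0.35 and 0.98 ± 0.37. *PXA1* and *FAA2*, by contrast, had -0.13 ± 0.31 and -0.29 ± 0.25 and were not called. *PIP2* rose by 1.58 ± 0.16 and *OAF1* by 0.98 ± 0.17. The median change was 1.03 for the enzymes, 0.45 for the peroxins and 0.12 for all genes. Leaving out the aerobic 0 h array alone gave 9 members called higher, beside 22.3% of all genes, namely 7 peroxins and both factors but 0 of 12 enzymes, and leaving out any 1 of the 5 other early or late aerobic arrays gave 0.

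**Figure D2:**
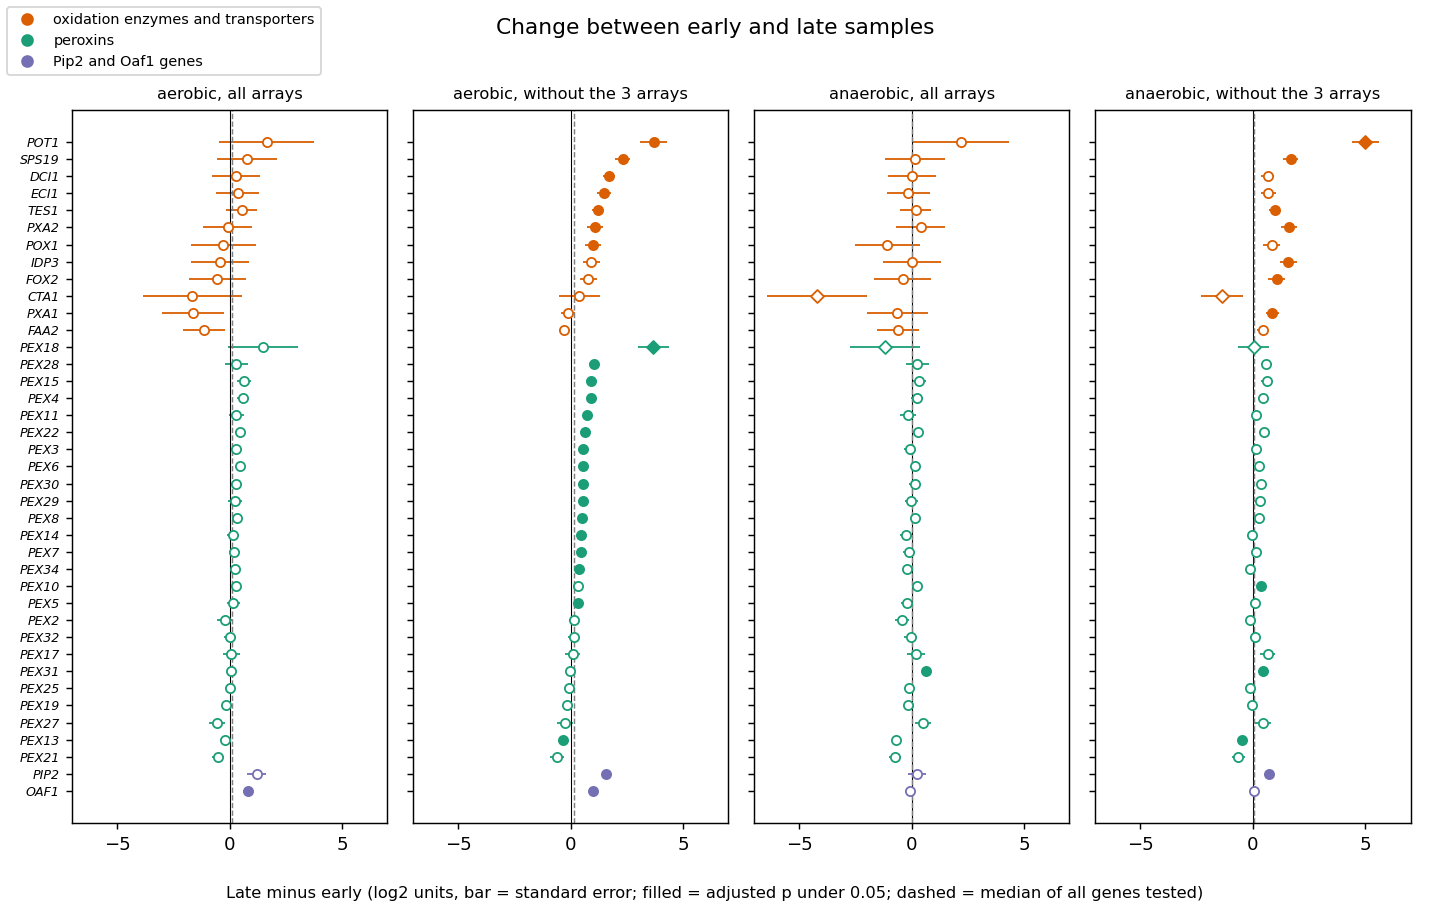
Late minus early in log2 units (horizontal axis) for each of the 39 members (rows) in both series, with all arrays and without the 3 arrays. Points are limma estimates with bars of 1 standard error, filled where the adjusted p was under 0.05, orange for enzymes, green for peroxins and violet for the factors, and the dashed line is the median of all genes. The enzyme bars shorten without the 3 arrays, and *POT1* then lies at 3.68 in the aerobic series. Diamonds stand for fits in which every array of a group lay under 4, so their place on the axis is not a measured size.

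The same comparison in the anaerobic series called 1 of 39 members, beside 6.04% of all genes. *PEX31*, which belongs to a group of membrane proteins that govern peroxisome number and size, rose by 0.64 ± 0.17 log2 units (limma adjusted p = 0.0418). Its early values were 9.52, 10.13 and 9.92, all below its late values of 10.47, 10.54 and 10.47. When arrays were centred on their medians or quantile-normalised a second time, *PEX31* had 0.63 and 0.62 and was not called (limma adjusted p = 0.0648 and 0.161). *PEX13*, with -0.70 and -0.74, was then the 1 member called. None of the 12 enzymes was called with all arrays, nor did any have an unadjusted p under 0.05. *CTA1* lay under 4 on every late array, and its value was not called.

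All 12 enzymes were highest at 0 h in the anaerobic series too, so leaving that array out removes the early sample that opposes a rise. The median anaerobic change of the enzymes was -0.08 with all arrays and 0.92 without the 3 arrays. The 4.35 h array, kept in that fit, carried marks of oxygen as well. The mean over the 3 genes used with oxygen was 13.25 there and 9.93 at 50.85 h. That over the 7 genes used without oxygen was 9.77 and 14.55. In both fits a change with glucose thus cannot be told apart from one with these marks. In the anaerobic series 10 members rose and 1 fell when the 3 arrays were left out, beside 20.9% and 19.7% of all genes. The 10 were 7 enzymes, *PEX10*, *PEX31* and *PIP2*. *POT1* was under 4 at both 4.35 and 10.38 h and rose by at least 3.59 log2 units (adjusted p = 0.00105). *SPS19* rose by 1.67 ± 0.33, *PXA2* by 1.59 ± 0.35, *IDP3* by 1.58 ± 0.37, *FOX2* by 1.06 ± 0.37, *TES1* by 0.97 ± 0.24 and *PXA1* by 0.87 ± 0.31 (limma adjusted p = 0.0479). *PIP2* rose by 0.71 ± 0.16, and *OAF1* had 0.04 ± 0.17 and was not called. *PEX13*, a docking protein of the import machinery, fell in both series in this fit, by 0.34 ± 0.13 aerobically (adjusted p = 0.0468) and by 0.47 ± 0.13 anaerobically (adjusted p = 0.0174).

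Whether the changes themselves differed with oxygen was tested as the difference of the 2 changes. These covered unlike glucose concentrations and times, with late reaching 60.34 g/L in the aerobic and 46.75 g/L in the anaerobic series. With all arrays 0 of 39 members were called by limma, beside 1.82% of all genes, and 3 had an unadjusted p under 0.05. Without the 3 arrays 3 of 39 members were called, a share not above the 9.76% of all genes. *PIP2*, with a difference of -0.87 ± 0.23, and *OAF1*, with -0.94 ± 0.25, changed less upward without oxygen (limma adjusted p = 0.0423 and 0.0424). *PEX18* was the third, but all its anaerobic values after 0 h lay under 4. A change without oxygen could thus not be seen, and no size or p is given. No enzyme was called in either fit.

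Peroxins moved less than the enzymes along both series. Over the 16 arrays the range of a peroxin was 1.81 log2 units in the median, from 1.01 for *PEX34* to at least 5.86 for *PEX18*, against 6.82 for the enzymes and 1.72 for all genes tested. These ranges include the difference between the series. Each gene was next set against its own mean of 16 arrays, since levels of different probe sets are not comparable. Within the aerobic series the enzyme median ran from -0.50 to 3.86 and the peroxin median from -0.04 to 0.99. Within the anaerobic series they ran from -2.44 to 1.78 and from -0.76 to -0.16. The enzyme median then lay 2.91 log2 units above the peroxin median at aerobic 0 h, 2.87 above at 9.6 h and 1.94 above at anaerobic 0 h. On the remaining aerobic arrays the enzyme median lay between 0.46 below and 0.75 above that of the peroxins. On the other anaerobic arrays it lay 0.70 to 1.79 below. From lowest to highest over both series together this difference spanned 4.70 log2 units. It spanned 4.74 and 4.71 after a second quantile normalisation and after centring on array medians.

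**Figure D3:**
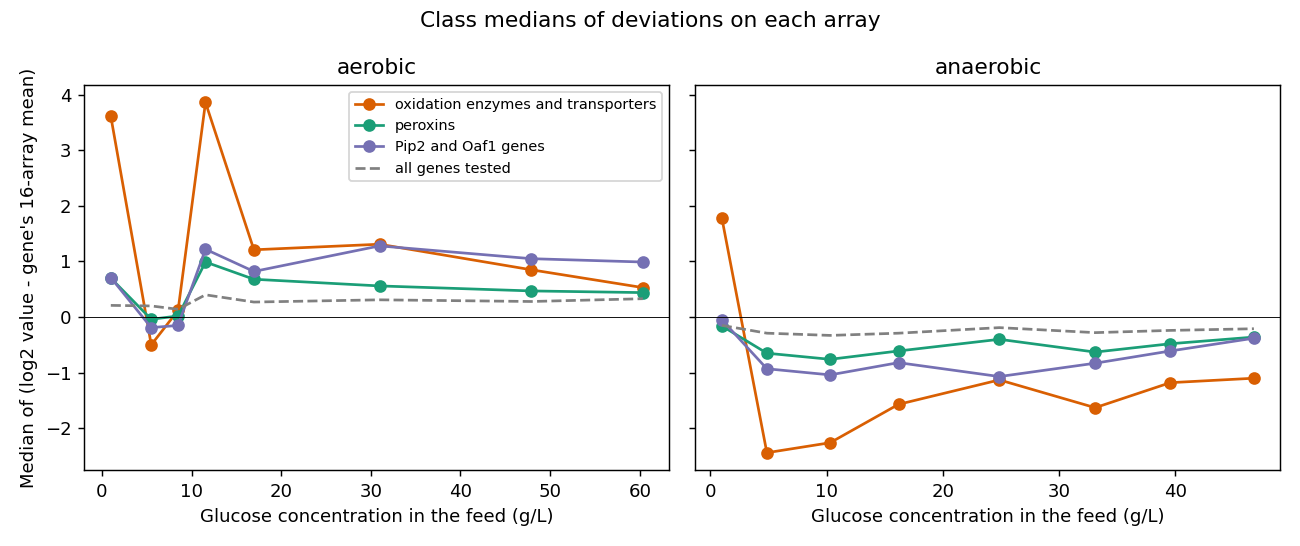
Median over each class of the log2 value minus the gene's own mean of 16 arrays (vertical axis) against glucose in the feed in g/L (horizontal axis), for 12 enzymes, 25 peroxins, the 2 factors and, dashed, all genes tested. The enzyme line reaches 3.61 and 3.86 at 1 and 11.56 g/L of the aerobic series, while the peroxin line stays between -0.76 and 0.99.

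The import receptors include the peroxin with the widest range. *PEX18* encodes a co-receptor of Pex7, which imports proteins with the second type of peroxisomal targeting signal, Pot1 among them. It read 9.17, 3.04, 2.24, 9.86, 8.69, 8.01, 5.70 and 5.20 log2 units along the aerobic series. In the anaerobic series only the 0 h array, which carried marks of oxygen, held a measurable level, 5.72. The other 7 arrays lay between 2.00 and 2.10. Its aerobic course had the same high pair of arrays as that of the enzymes. Without the 3 arrays it was called higher in late than in early aerobic samples, by at least 2.30 log2 units. Both early values in that fit lay under 4, and it had passed the filter through aerobic arrays, so no p is given. *PEX21*, which encodes the other Pex7 co-receptor, read 11.78, 11.96, 11.99, 12.54, 12.16, 11.52, 11.29 and 11.29 in the same samples. Its changes of -0.54 ± 0.27 with all arrays and -0.61 ± 0.30 without the 3 were not called, although its early and late samples did not overlap. *PEX7* itself and *PEX5*, the receptor for the first type of signal, rose by 0.45 ± 0.11 and 0.32 ± 0.11 in the same comparison without the 3 arrays and were not called with all arrays.

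Of the docking and ubiquitin ligase peroxins none was called in aerobic late minus early with all arrays. *PEX14*, the main docking protein, had 12.29, 11.29 and 11.38 early and 11.83, 11.80 and 11.78 late in the aerobic series, with 0.15 ± 0.27 (limma adjusted p = 0.734), and rose by 0.47 ± 0.14 without the 3 arrays (adjusted p = 0.0138). *PEX2* and *PEX10*, RING-type ligases that modify the receptors, had -0.22 ± 0.33 and 0.29 ± 0.17. *PEX4*, *PEX15* and *PEX22*, the ubiquitin-conjugating enzyme, the membrane anchor of the ATPase Pex6 and the anchor of Pex4, rose without the 3 arrays by 0.90 ± 0.18, 0.91 ± 0.23 and 0.64 ± 0.18 (limma adjusted p = 0.0021, 0.00737 and 0.0127). *PEX6* and *PEX8* rose by 0.56 ± 0.15 and 0.51 ± 0.11 in that fit, and none of these 5 was called in aerobic late minus early with all arrays.

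*PEX3*, which takes membrane proteins from their carrier Pex19, rose by 0.56 ± 0.12 without the 3 arrays, and *PEX19* had -0.18 ± 0.15. Among genes of peroxisome proliferation, *PEX11* read 14.47, 13.33, 13.09, 14.52, 13.97, 14.17, 13.77 and 13.80 aerobically, a mild form of the enzymes' course. It rose by 0.71 ± 0.19 without the 3 arrays, and *PEX34* by 0.34 ± 0.11, while *PEX25* (-0.09 ± 0.13) and *PEX27* (-0.27 ± 0.36) were not called. In the group of *PEX28* to *PEX32*, *PEX28* stood out with 10.85, 8.75, 8.58, 10.67, 10.14, 10.05, 9.52 and 9.48 along the aerobic series. It rose by 1.02 ± 0.23 without the 3 arrays (adjusted p = 0.00438), *PEX29* and *PEX30* rose by 0.54 ± 0.13 and 0.55 ± 0.14, and *PEX31* and *PEX32* had -0.04 ± 0.13 and 0.12 ± 0.23 and were not called. With all arrays none of the 25 peroxins was called in aerobic late minus early, and *PEX28* had 0.29 ± 0.52 (limma adjusted p = 0.733).

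**Figure D4:**
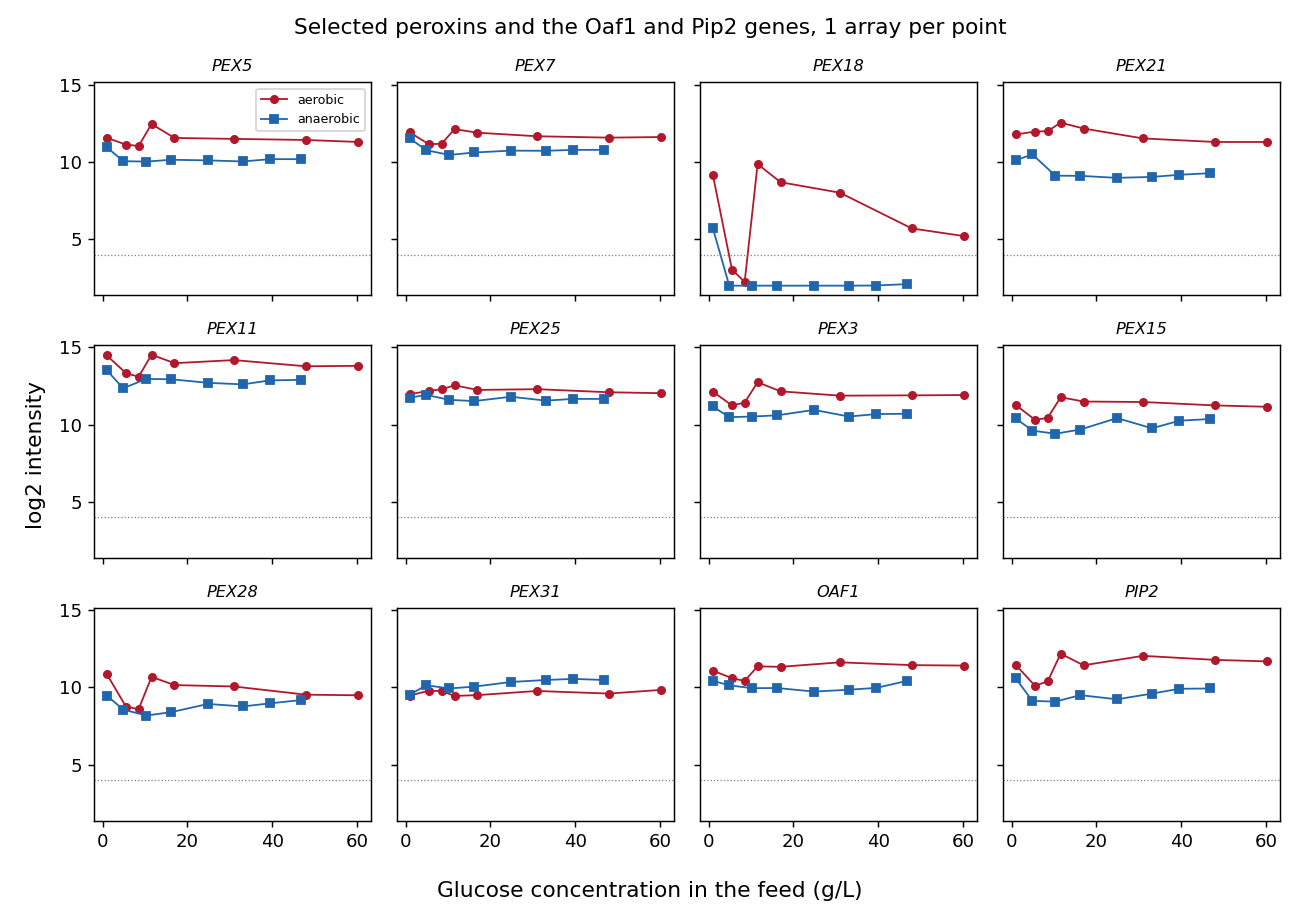
log2 intensity of 10 selected peroxins, *OAF1* and *PIP2* (vertical axis) against glucose in the feed in g/L (horizontal axis), with 1 point per array, circles for aerobic and squares for anaerobic samples, and a dotted line at 4 log2 units. *PEX18* lies under 4 on 9 of the 16 arrays and reaches 9.86, *PEX25* spans 11.52 to 12.54, and *PEX31* reaches its highest values on the late anaerobic arrays.

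The last comparison set the anaerobic against the aerobic series as the mean difference over the early, mid and late phases. These phases were not matched in glucose or time. Mid was 11.56 and 16.96 g/L with oxygen and 16.19 and 24.86 g/L without, and aerobic mid held the 9.6 h array. Values of all genes were lower without oxygen by a median of 0.51 log2 units, so class medians are also given relative to this. Of the 39 members 37 were called lower and 1 higher by limma, beside 62.3% and 8.0% of all genes. After centring on array medians 27 were lower and 2 higher, beside 22.8% and 30.5% of all genes. After a second quantile normalisation 26 were lower and 2 higher, beside 25.0% and 23.6%. All 12 enzymes were lower as deposited, with a median of -2.68 (-2.17 relative to all genes), and 11 of 12 were lower after centring and 9 of 12 after the second quantile normalisation. In a bulk extract, fewer cells with a transcript and less of it per cell cannot be told apart.

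The value for *CTA1* was -5.42 log2 units or lower without oxygen, a bound because it lay under 4 on 6 of 8 anaerobic arrays, each set to 4 here. It is counted among the enzymes called lower. However, it passed the filter through the aerobic arrays, with 8 aerobic and 2 anaerobic values of at least 4, so no p is given. *POT1*, with 2 of 8 anaerobic values under 4, was at -4.79 or lower with those values set to 4 (limma adjusted p = 0.00412 on the values as deposited). Values were -3.16 ± 0.81 for *IDP3*, -3.14 ± 0.90 for *POX1* and -2.93 ± 0.59 for *ECI1* (adjusted p = 0.000765). *FAA2* had the smallest difference among the enzymes, -1.55 ± 0.58 (adjusted p = 0.0299), which was not called after either rescaling. The aerobic and anaerobic samples of each enzyme overlapped, since each anaerobic 0 h value lay above at least 1 aerobic value. Without the 3 arrays all 12 were again called lower, beside 68.5% of all genes, with a median of -2.22. In 7 of them the aerobic arrays then all lay above the anaerobic ones on values as deposited, as for 31.4% of all genes. *PIP2* and *OAF1*, with -1.84 ± 0.25 and -1.14 ± 0.12, were lower too and remained called under both rescalings.

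For 12 of 25 peroxins every aerobic array lay above every anaerobic array, as for 20.8% of all genes. This was counted only on values as deposited, in which every aerobic array median was above every anaerobic one. *PEX21* had the lowest p of the 39 members in this comparison, with a difference of -2.51 ± 0.17 (limma adjusted p = 3.44e-07), with 11.29 to 12.54 on the aerobic arrays and 8.97 to 10.49 on the anaerobic ones. *PEX17*, a docking peroxin, differed by -2.22 ± 0.24, with 8.63 to 9.46 aerobically and 5.84 to 7.50 anaerobically. *PEX18* is counted among the peroxins called lower, but it passed the filter through the aerobic arrays, with 6 aerobic values and 1 anaerobic value of at least 4, so it had to differ and no size or p is given. The class median was -1.05, or -0.53 relative to the median of all genes. After centring, 14 peroxins were lower, 9 were not called and 2 were higher. The sign turned for *PEX25* (0.05 after centring against -0.54 as deposited) and *PEX4* (0.13 against -0.46). *PEX31* was higher without oxygen by 0.56 ± 0.10 as deposited (adjusted p = 0.000361) and by 1.15 after centring. *PEX27*, with 0.37 ± 0.22 as deposited (adjusted p = 0.154), was called higher after both rescalings.

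**Figure D5:**
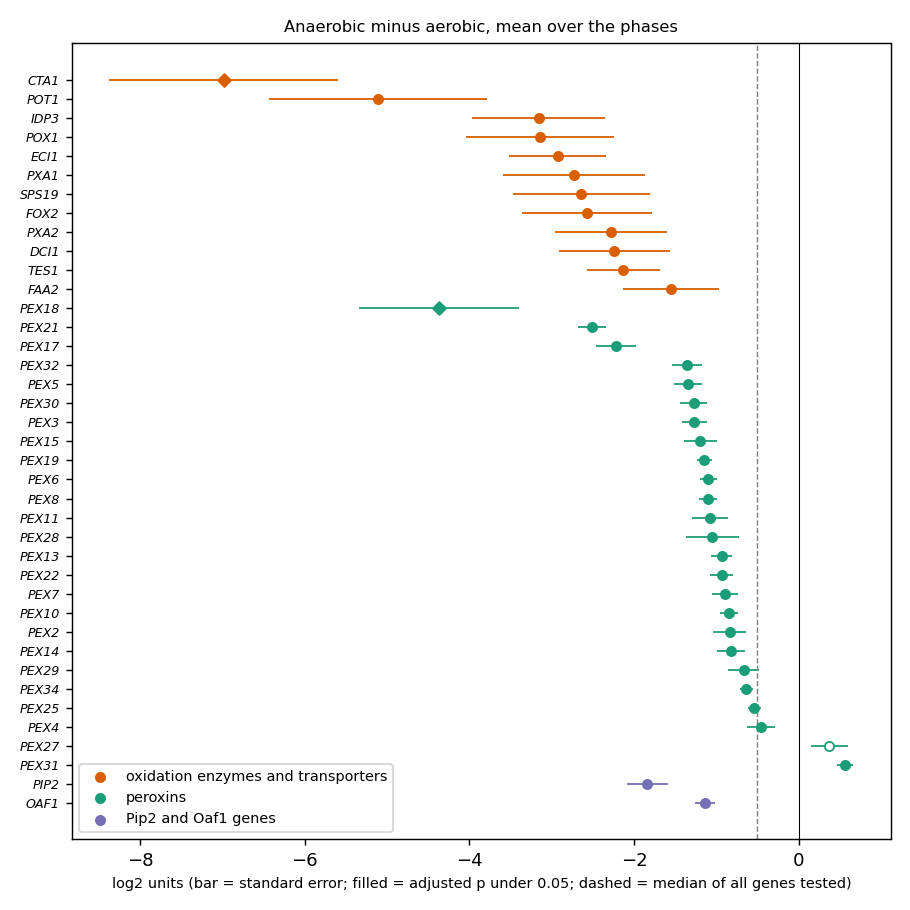
Anaerobic minus aerobic difference in log2 units (horizontal axis), averaged over the phases, for each of the 39 members (rows). Points are limma estimates with bars of 1 standard error, filled where the adjusted p was under 0.05, and the dashed line is the median of all genes, -0.51. The 12 enzymes lie at or below -1.55, and *PEX27* and *PEX31* lie to the right of 0. Diamonds (*CTA1* and *PEX18*) stand for fits in which every array of a group lay under 4, so their place is not a measured size.

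Neighbouring steps of the pathway were followed with lists of genes that hold no member. Acetyl units leave the peroxisome on carnitine, and all 5 carnitine shuttle genes were at least 1 log2 unit higher at 0 h than in the next pair of samples in both series, beside 12.4% of all genes in each, a description of single arrays. The shares of all genes called, 15.5% in aerobic late minus early and, without the 3 arrays, 33.1% higher and 21.4% lower, are the measure for the counts below. In the late minus early comparison of the aerobic series 1 of the 5 fell and none rose. The one that fell was *YAT2*, a carnitine acetyltransferase, by 3.34 log2 units (limma adjusted p = 0.0201), with 13.93, 12.37 and 12.69 early and 10.14, 9.55 and 9.27 late. Leaving the 3 arrays out gave 1 higher and 2 lower. In the list of the glyoxylate cycle and peroxisomal malate dehydrogenase 0 of 6 rose and 2 fell, namely *ICL1*, isocitrate lyase, by 3.09 (adjusted p = 0.0404) and *CIT2*, the peroxisomal citrate synthase, by 0.54 (adjusted p = 0.0466). Of 7 regulators, *OAF3*, which encodes a repressor of oleate-responsive genes, rose by 0.48 (adjusted p = 0.0169) and 0 fell, and in the fit without the 3 arrays 2 were higher and 4 lower. *ADR1* was among those 4, with 12.80, 12.03 and 12.42 early and 11.36, 10.96 and 10.47 late, and fell by 1.29 in that fit (adjusted p = 0.00248).

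Other peroxisomal proteins gave 0 calls among 12 genes in the aerobic comparison, and 6 higher and 2 lower without the 3 arrays, the 2 lower being near the share of all genes. In the anaerobic series 1 of these 12 fell and 0 rose, beside 6.04% of all genes called. This was *ANT1*, the peroxisomal ATP carrier that serves Faa2, which fell by 0.98 (limma adjusted p = 0.0188), and its change also differed between the series, by -1.40 (adjusted p = 0.0356). Of 5 genes for fatty acid uptake and activation outside peroxisomes, 0 rose and 0 fell in the aerobic series, while 1 fell in the anaerobic one, beside the 15.5% and 6.04% of all genes called. *FAA1*, the main long-chain acyl-CoA synthetase, read 14.30, 12.68 and 11.04 early and 8.43, 9.24 and 10.14 late, and fell by 3.40 (adjusted p = 0.029). Without oxygen all 5 carnitine shuttle genes, 4 of 6 of the glyoxylate list, 11 of 12 other peroxisomal genes, 2 of 5 of the uptake and activation list and all 7 regulators were lower, and *CIT2* was higher by 0.87. These counts are of values as deposited, where 62.3% of all genes were lower, so that 4 of 6 is near that share and 2 of 5 below it. The lists were not counted after rescaling, where the shares of all genes were 22.8% (centring) and 25.0% (second quantile normalisation). The median of the 7 regulators was -0.62, against -0.51 for all genes.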

How the data were processed

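Total RNA of 16 samples was labelled and hybridised to Affymetrix arrays. The deposited table holds log2 intensities, made by the authors with GCRMA per the submitters' processing notes. Its version and options, and any joint normalisation of both series, are unknown here. The logarithm's base was inferred from the spread of the values.

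Of 5716 probe sets, 5498 had 1 gene symbol and 218 had none and were left out. The probe set of highest mean was taken per gene, and 5213 of 5449 genes passed the filter of 4 log2 units on 3 arrays. A model of 6 cell means was fitted in limma 3.58.1 (R 4.3.3, eBayes with a trend on intensity and 10 residual degrees of freedom), and a gene was called at a Benjamini-Hochberg adjusted p under 0.05 over all 5213. If every array of a group was under 4, the change is given as a bound, with values under 4 set to 4. The model was tested on simulated data. Precision is limited by how few arrays each group has.

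The members, the lists and the arrays left out were chosen with earlier results of these data known. Any member may be named, with its values on each array where it was called or stands for a role, and up to 3 called genes per neighbouring list. Alternatives covered scaling, filter, probe set choice, grouping, slope and arrays left out. *AAC2*, listed among the oxygen markers, had no probe set of that symbol and was left out.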

Additional observations from a re-analysis of the deposited data

How the results depend on the processing

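Counts of members called are given here for other settings, beside 1 for aerobic late minus early, 1 for anaerobic late minus early, 0 for the difference of changes and 38 for anaerobic minus aerobic. No filter, a filter at 6 log2 units, the mean of probe sets, no intensity trend and a robust prior left all 4 counts as they were. Aerobic late minus early gave 2 after a second quantile normalisation and with mid joined to late, 0 with 2 samples a side and with a slope on glucose, 25 without the 3 arrays and 3 without the aerobic 9.6 h and anaerobic 0 h arrays. Anaerobic late minus early gave 0 with each series alone, with mid joined to late and with 2 samples a side, 2 with the slope, and 11 without the 3 arrays. The difference of changes gave 3 without the 3 arrays. Over all genes the 4 counts were 807, 315, 95 and 3663, and the first 3 became 2841, 2120 and 509 without the 3 arrays. Over the other settings they ran from 8 to 1643, 74 to 868, 13 to 233 and 2533 to 4081. Leaving out 1 array at a time gave 0 to 9, 0 to 2, 0 to 1 and 36 to 38 calls in the 4 comparisons. *OAF1* lost its call in 7 of 29 other settings and *PEX31* in 16 of 29. Of the 38 calls for anaerobic minus aerobic, 26 held in all 28 other settings and 12 were lost in at least 1, and the sign turned for *PEX25* (0.05 after centring) and *PEX4* (0.21 after quantile normalisation, 0.13 after centring). No paired analysis was possible because the labels give no replicate numbers. GCRMA values near 2 log2 units are a floor, so the order of values below 4 is not known.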
